A study of Mus musculus with 8 samples.

Results

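Collagen genes were followed on 8 Affymetrix Mouse Gene 2.0 arrays of mouse brain vessels, 4 of digested and 4 of undigested vessels. All genes whose platform symbol is single and has the form Col, number, a, number were taken, which gave 44 of the 22180 named genes on the array. A gene with several transcript clusters, the probe groups for which the array reports a value, was represented by its brightest cluster, taken on the average of all 8 arrays. By their known assembly the genes were divided into 8 basement membrane collagens (types IV, XV and XVIII), 11 fibrillar collagens, 6 type VI collagens and 19 other collagens. Of the 44 genes, 43 lay above a background floor of 4.68 on the log2 scale and were tested, as were 16222 named genes in all. The remaining gene, Col6a4, had 4.61, 4.45, 4.86 and 3.76 in digested vessels, against 4.63, 4.77, 4.64 and 4.56 in undigested vessels, and was not tested.

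All vessels came from 2-month-old male C57Bl6 mice with no transgene or other allele named, and each array held a library from vessels pooled from several mice. Digested vessels were obtained by a warm incubation of the brain with DNAse I and Liberase DL, an enzyme blend that contains collagenase, in place of the mechanical homogenization used for undigested vessels, per the study's methods, while the labels call the extraction mechanical for both. This digestion is partial and acts on the basal lamina (BL), the protein sheet to which astrocyte endfeet attach. The study used it to find the mRNAs that leave the vessels with the endfeet, and the arrays measured RNA, not the collagen proteins that the enzymes cut. Enzymes, warm incubation and the missing homogenization cannot be told apart, since they changed together.

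Collagens are secreted or membrane proteins in which 3 chains wind into a triple helix built from repeats of glycine and 2 further residues. Type IV chains join into the network of basement membranes, where vascular cells deposit mainly the alpha1 and alpha2 chains, and types XV and XVIII are proteoglycan collagens that lie at or in these membranes. Fibrillar chains such as those of types I, III and V form the fibrils of the adventitia and the leptomeninges and are made largely by fibroblasts. Type VI chains form beaded microfilaments around cells, type VIII chains form open networks, and types IX, XII, XIV, XX and XXII attach to fibrils. Type XIII, XVII, XXIII and XXV chains span the cell membrane.

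The labelled tissue was checked on its markers. All 34 endothelial markers measured lay above the floor, with array means of 9.16 to 9.48 in digested vessels, against 9.66 to 10.02 in undigested vessels, and 17 of them were lowered. In limma (adjusted p of 0.05) 9.04% of all named genes were lowered and 14.4% were raised, the shares to set beside these counts. Of the markers of other cell types, 15 of 20 for astrocytes, 10 of 15 for pericytes, 9 of 19 for perivascular fibroblasts, 7 of 9 for perivascular macrophages and 10 of 16 for motile cilia were lowered, and 12 of 14 for choroid plexus epithelium were raised. The choroid plexus markers averaged 10.56, 10.29, 10.82 and 10.84 in digested arrays 1 to 4, against 8.91, 8.79, 9.63 and 9.61 in undigested arrays 1 to 4. Undigested arrays 1 and 2 thus lay below undigested arrays 3 and 4, and the fibroblast markers followed the same split, with 8.16, 8.18, 8.61 and 8.61 in undigested vessels, while the digested arrays held 7.93, 7.83, 7.87 and 7.93. Macrophage markers also followed it, with 6.35, 6.31, 6.45 and 6.66 in digested arrays, against 6.93, 7.05, 7.68 and 7.74 in undigested arrays. Astrocyte markers (8.08, 8.10, 8.48 and 8.46) and motile cilia markers (7.41, 7.42, 7.89 and 7.80) split likewise in undigested arrays 1 to 4. Endothelial and pericyte markers had the reverse order there. No label names this split of the undigested arrays. Of the 15 smooth muscle markers 2 were raised, 1 was lowered and 12 did not pass. The 15 averaged 9.76, 9.73, 9.05 and 9.19 in digested arrays 1 to 4, against 8.85 to 9.05 in undigested arrays. In such mixed RNA, fewer cells of a type and less RNA per cell cannot be told apart, and the part of these shifts in the results below was not tested beyond the values given.

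Upon BL digestion 10 of the 43 collagen genes were lowered, 4 were raised and 29 did not pass the test (limma, adjusted p of 0.05 over all transcript clusters). The lowered members made up 23.3% of those tested, against 9.04% of all named genes, and the raised members made up 9.3%, against 14.4%. The lowered genes were the type I genes Col1a1 and Col1a2, Col5a3, the basement membrane genes Col4a1 and Col15a1, the type VI gene Col6a5, and Col12a1, Col23a1, Col26a1 and Col9a2. The raised genes were Col9a3, both type VIII genes Col8a1 and Col8a2, and Col14a1. A change of at least 2-fold was found for Col6a5, Col1a1 and Col12a1 downward and for Col9a3 upward, beside 1.41% and 1.33% of all named genes in these directions. The 4 digested and 4 undigested values did not overlap for 17 members (39.5%), 12 of them lower and 5 higher in digested vessels, while 29.6% of all named genes did not overlap (11.8% lower and 17.8% higher in digested vessels). The median difference, digested minus undigested, was -0.13 on the log2 scale over the 43 genes and 0.02 over all named genes.

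**Figure D1:**
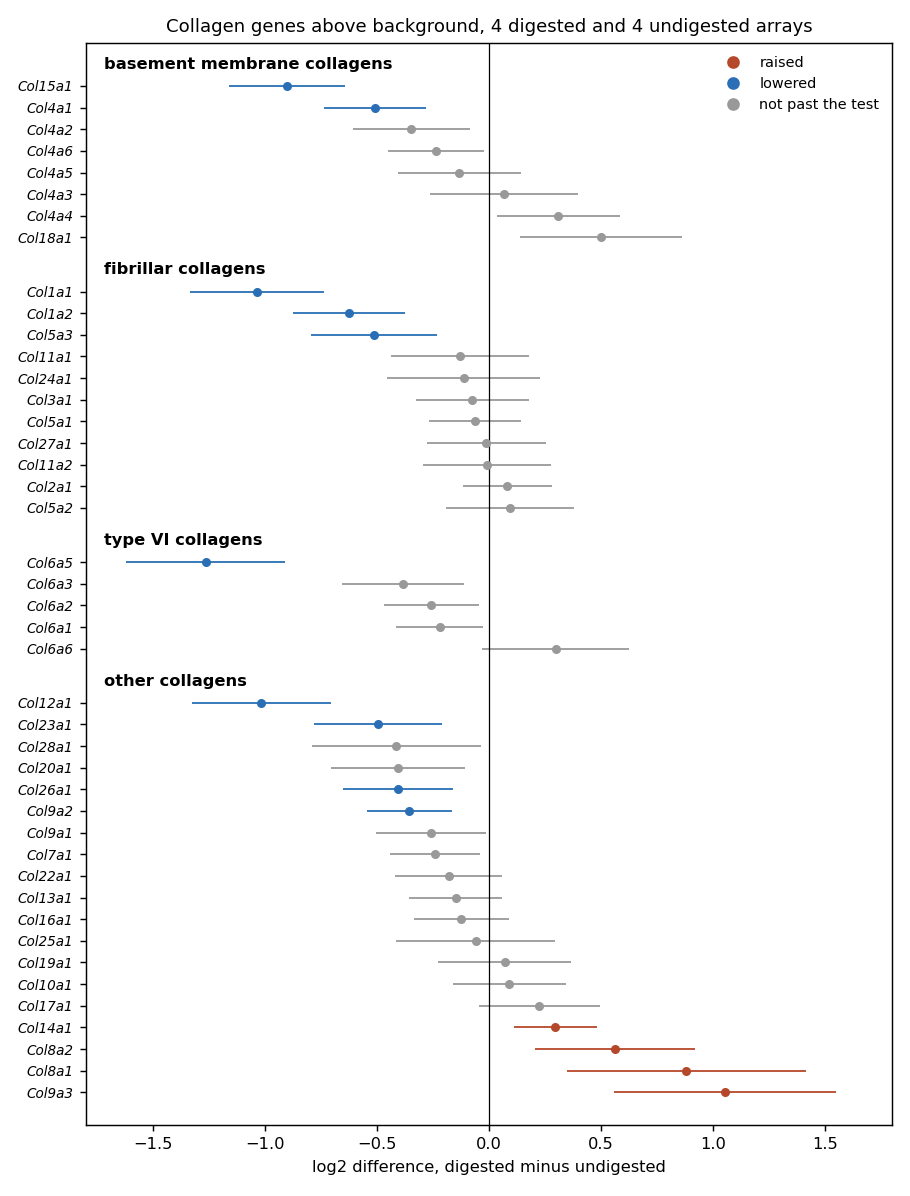
Log2 difference, digested minus undigested (x axis), for the 43 collagen genes above background by class (y axis), with 95% confidence intervals as bars. Lowered genes are blue, raised genes red and genes not past the test grey; the values run between -1.26 for Col6a5 and 1.05 for Col9a3, and each class holds genes on both sides of 0.

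Of the 6 network-forming type IV genes, Col4a1 passed the test and 5 did not. Col4a1, which encodes the alpha1 chain, had log2 levels of 8.55, 8.45, 8.26 and 8.35 in digested vessels, against 9.01, 9.0, 8.69 and 8.94 in undigested vessels. Every digested array lay below every undigested array. Col4a1 averaged 8.40 ± 0.12 in digested vessels and 8.91 ± 0.15 in undigested vessels (SD, n = 4 each), a difference of -0.51 (SE 0.10, adjusted p = 0.00853) or 1.42-fold lower. Its partner Col4a2, the alpha2 chain gene, had 8.15, 8.27, 7.91 and 7.91 in digested vessels, against 8.44, 8.58, 8.22 and 8.39 in undigested vessels. The highest digested array lay above the lowest undigested array, and the Col4a2 difference of -0.35 (SE 0.12, 95% interval -0.61 to -0.09, adjusted p = 0.0621) did not pass the test. It passed when digested array 2 or undigested array 3 was left out (adjusted p = 0.0404 and 0.0428). In the other 6 fits with a single array left out it did not pass (adjusted p = 0.086 to 0.15). Whether Col4a1 and Col4a2 differed from each other was not tested.

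Col4a1 and Col4a2 lie head to head on mouse chromosome 8, so that their start regions face each other. The windows of 250 bases before and 50 bases after each start site are shown because a single stretch serves as the start of both genes (RefSeq, build GRCm38.p6; Col4a1 on the minus strand at chr8:11312777-11313076, Col4a2 on the plus strand at chr8:11312555-11312854, each written 5′ to 3′). The start sites lie 21 bases apart, and the capitals mark the 78 bases that both windows share, read from opposite strands.
Col4a1: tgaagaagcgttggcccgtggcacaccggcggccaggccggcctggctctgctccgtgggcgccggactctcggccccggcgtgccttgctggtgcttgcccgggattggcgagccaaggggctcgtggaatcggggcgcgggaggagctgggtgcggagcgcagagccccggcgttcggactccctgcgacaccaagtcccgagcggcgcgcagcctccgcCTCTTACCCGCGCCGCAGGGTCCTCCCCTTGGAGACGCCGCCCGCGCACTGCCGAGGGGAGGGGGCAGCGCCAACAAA
Col4a2: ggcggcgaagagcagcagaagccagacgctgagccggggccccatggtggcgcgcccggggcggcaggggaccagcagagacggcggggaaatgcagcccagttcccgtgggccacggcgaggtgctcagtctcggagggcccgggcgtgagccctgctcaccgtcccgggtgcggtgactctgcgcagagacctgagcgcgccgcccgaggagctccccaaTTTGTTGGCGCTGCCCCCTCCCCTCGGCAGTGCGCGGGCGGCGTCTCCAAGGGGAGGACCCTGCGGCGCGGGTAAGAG
A CCAAT match (CCAAT or ATTGG) occurred 1 time in each window, and GGGCGG (or CCGCCC on the other strand) occurred 1 time in the Col4a1 window and 3 times in the Col4a2 window. In all 32851 windows of this length, 37.4% held CCAAT and 35.7% held GGGCGG, so that neither match is rare. Of 38 windows of 35 collagen genes, 13 (34.2%) held CCAAT and 23 (60.5%) held GGGCGG. GC content was 74% and 73.7% in the Col4a1 and Col4a2 windows, and its median over all windows was 52.7%.

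The other type IV genes, whose chains serve specialized basement membranes, did not pass the test. Col4a4 had 6.09, 5.97, 6.39 and 6.49 in digested vessels, against 5.91, 5.86, 6.0 and 5.94 in undigested vessels, a difference of 0.31 (SE 0.12, adjusted p = 0.104) with overlapping groups. Its chromosome neighbour Col4a3 had 6.60, 6.15, 6.72 and 6.81 in digested vessels, against 6.48, 6.45, 6.37 and 6.71 in undigested vessels, a difference of 0.07 (SE 0.15, adjusted p = 0.786). For both genes digested array 2 was the lowest digested array. X-linked Col4a5 had 7.14, 6.86, 7.09 and 7.01 in digested vessels, against 6.90, 7.06, 7.41 and 7.26 in undigested vessels (log2 difference -0.13, SE 0.12, adjusted p = 0.477). Col4a6, next to it, had 6.34, 6.18, 6.05 and 5.99 in digested vessels, against 6.31, 6.31, 6.44 and 6.44 in undigested vessels (-0.24, SE 0.10, adjusted p = 0.107). Both overlapped between the groups, Col4a6 only through digested array 1. Their start sites lie 1343 bases apart, so that their windows share no base.

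Of the genes of types XV and XVIII, Col15a1 fell and Col18a1 did not pass the test. Col15a1 had 5.79, 5.88, 6.23 and 6.19 in digested vessels, against 7.03, 6.94, 6.84 and 6.89 in undigested vessels. The groups lay well apart, and the undigested values were close together. Col15a1 averaged 6.03 ± 0.22 in digested vessels and 6.93 ± 0.08 in undigested vessels (SD, n = 4 each) and fell 1.87-fold (log2 difference -0.90, SE 0.11, adjusted p = 0.00146). Col18a1, the source of endostatin, had 7.82, 7.89, 7.30 and 7.25 in digested vessels, against 7.23, 6.94, 7.12 and 6.97 in undigested vessels. All digested arrays lay above all undigested arrays, with digested arrays 1 and 2 higher than 3 and 4, the order also seen for the smooth muscle markers, whose part in Col18a1 was not tested. The Col18a1 difference of 0.50 (SE 0.16, 95% interval 0.14 to 0.86, adjusted p = 0.0541) did not pass the test, and it passed without digested array 3 (0.59, adjusted p = 0.0436) or digested array 4 (0.60, adjusted p = 0.0343). In the other 6 fits with a single array left out Col18a1 did not pass. Over the 8 basement membrane collagens limma called 2 lowered (25%, against 9.04% of all named genes) and 0 raised, beside 14.4% of all named genes. Their median difference was -0.19. At an unadjusted p of 0.05 the higher ones were 2, Col18a1 and Col4a4, and the methods' t-test after Benjamini-Hochberg adjustment raised 0.

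**Figure D2:**
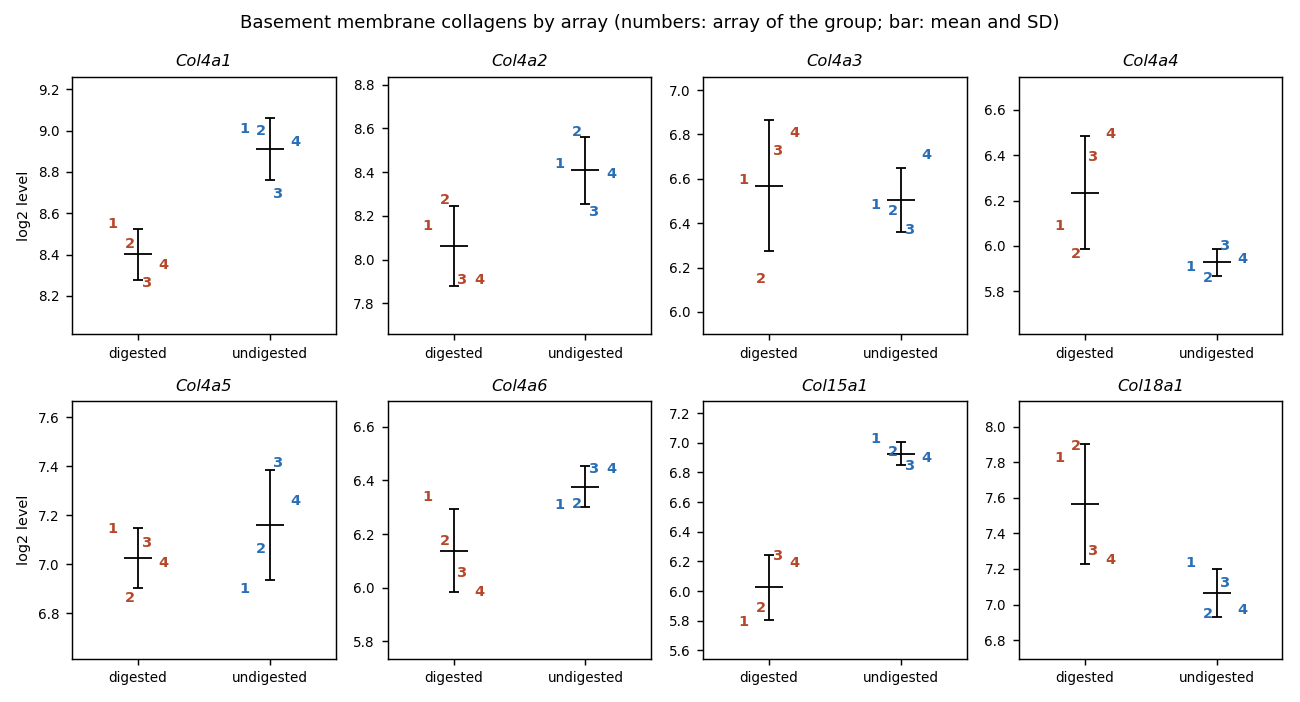
Log2 level (y axis, scaled per gene) of the 8 basement membrane collagens, with digested arrays left of undigested arrays, the array number as the point and a bar for the mean and SD. Col4a1 and Col15a1 were lower in all digested arrays, and Col18a1 was higher in all digested arrays without passing the test.

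Among fibrillar collagens the type I genes fell and the type III gene did not pass. Col1a1, the alpha1 chain gene of type I collagen, had 7.85, 7.80, 8.09 and 8.07 in digested vessels, against 8.76, 8.81, 9.25 and 9.15 in undigested vessels. No digested array reached the lowest undigested array. Col1a1 averaged 7.95 ± 0.15 in digested vessels and 8.99 ± 0.24 in undigested vessels (SD, n = 4 each), 2.05-fold lower (log2 difference -1.04, SE 0.13, adjusted p = 0.00153). Col1a2, the alpha2 chain gene, had 8.75, 8.59, 8.58 and 8.51 in digested vessels, against 9.04, 9.09, 9.46 and 9.34 in undigested vessels, again without overlap. Col1a2 fell 1.54-fold (log2 difference -0.63, SE 0.11, adjusted p = 0.00536). A second and dimmer Col1a2 cluster differed by -0.05 (adjusted p = 0.848), and the mean of both clusters did not pass (-0.34, adjusted p = 0.0721). Both type I genes were lower in undigested arrays 1 and 2 than in 3 and 4. The fibroblast, astrocyte, macrophage, motile cilia and choroid plexus markers shared this order. In digested vessels Col1a1 kept it, while the fibroblast markers did not (7.93, 7.83, 7.87 and 7.93). Col1a2 did not keep it either (8.75, 8.59, 8.58 and 8.51). The part of any cell type in these genes was not tested.

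Col3a1, whose product forms fibrils together with type I collagen, had 8.02, 8.08, 7.84 and 7.92 in digested vessels, against 7.93, 7.82, 8.28 and 8.12 in undigested vessels. The groups overlapped, and the difference was -0.07 (SE 0.11, 95% interval -0.33 to 0.18, adjusted p = 0.682). Arrays numbered 1 and 2 gave 0.17 for Col3a1 and arrays numbered 3 and 4 gave -0.32. Col5a3, a type V chain gene, had 6.07, 6.36, 6.55 and 6.25 in digested vessels, against 6.93, 7.0, 6.66 and 6.69 in undigested vessels, and it fell 1.43-fold (log2 difference -0.51, SE 0.12, adjusted p = 0.019). Its groups did not overlap, but the Col5a3 call was lost without undigested array 1 (-0.48, adjusted p = 0.0537) or undigested array 2 (-0.45, adjusted p = 0.0533). The other type V genes Col5a1 and Col5a2 differed by -0.06 (adjusted p = 0.667) and 0.09 (adjusted p = 0.646), and a second Col5a1 cluster differed by 0.06 (adjusted p = 0.716). Of the 11 fibrillar genes limma called 3 lowered (27.3%, against 9.04% of all named genes) and 0 raised, beside 14.4% of all named genes. The raised count was also 0 at an unadjusted p of 0.05 and by the methods' t-test after Benjamini-Hochberg adjustment. The median was -0.07, and Col2a1, Col11a1, Col11a2, Col24a1 and Col27a1 lay between -0.13 and 0.08.

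Type VI collagen is assembled from alpha1, alpha2 and a further chain, which can be alpha3 or the related alpha4, alpha5 or alpha6. Col6a5 had 5.30, 5.19, 4.80 and 5.0 in digested vessels, against 6.04, 6.33, 6.71 and 6.27 in undigested vessels. The digested values lay near the floor and all below the undigested values. Col6a5 averaged 5.07 ± 0.22 in digested vessels and 6.34 ± 0.28 in undigested vessels (SD, n = 4 each), 2.40-fold lower and the largest fall among the collagens tested (log2 difference -1.26, SE 0.16, adjusted p = 0.00137).

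The genes of the common chains did not pass the test. Col6a1 had 8.04, 8.12, 8.05 and 7.85 in digested vessels, against 8.19, 8.35, 8.16 and 8.24 in undigested vessels, with no overlap (log2 difference -0.22, SE 0.09, adjusted p = 0.1). Col6a2 had 7.14, 7.28, 6.95 and 6.97 in digested vessels, against 7.27, 7.37, 7.42 and 7.31 in undigested vessels, and overlapped (-0.26, SE 0.09, adjusted p = 0.0816). Col6a3 had 6.52, 6.49, 6.17 and 6.14 in digested vessels, against 6.61, 6.62, 6.93 and 6.69 in undigested vessels, with no overlap (-0.38, SE 0.12, adjusted p = 0.0501). All 3 differences were negative, with digested arrays 3 and 4 the lowest for Col6a2 and Col6a3. Col6a6 had 6.83, 6.59, 7.01 and 7.01 in digested vessels, against 6.54, 6.46, 6.92 and 6.32 in undigested vessels, an overlapping difference of 0.30 (SE 0.15, adjusted p = 0.179). Col6a6 and Col6a5 are neighbours on chromosome 9 and their differences had opposite signs; only Col6a5 passed the test, and the difference between them was not tested. Over the 5 type VI genes above the floor limma called 1 lowered (20%, against 9.04% of all named genes) and 0 raised, beside 14.4% of all named genes. The lowered gene was Col6a5. The basement membrane, fibrillar and type VI classes each hold few genes, so that their shares are coarse. The raised count was also 0 at an unadjusted p of 0.05 and by the methods' t-test after Benjamini-Hochberg adjustment. The median was -0.26. A second Col6a1 cluster differed by -0.08 (adjusted p = 0.51).

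**Figure D3:**
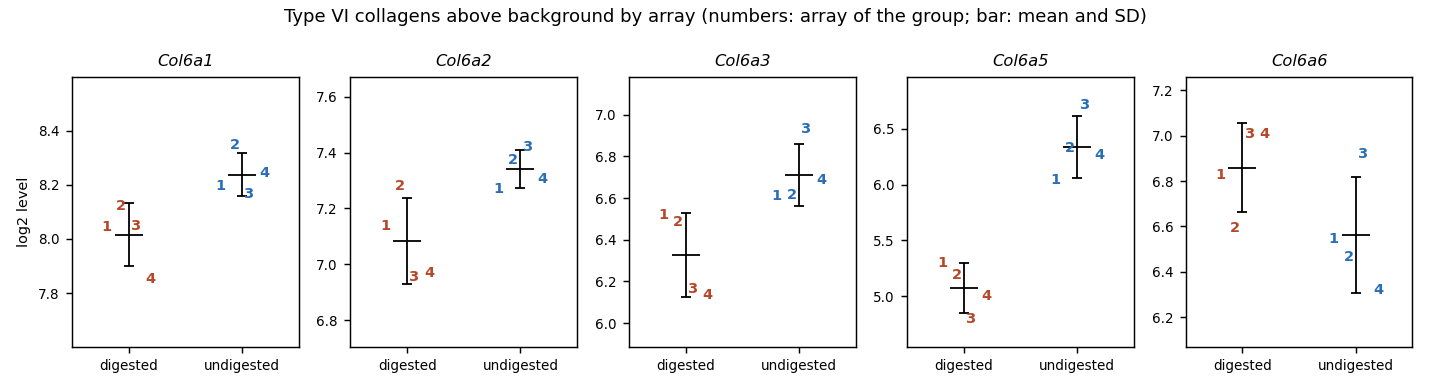
Log2 level (y axis, scaled per gene) of the 5 type VI collagens above background, with digested arrays left of undigested arrays, the array number as the point and a bar for the mean and SD. Col6a5 had digested values of 4.80 to 5.30, below the undigested values of 6.04 to 6.71, whereas Col6a6 overlapped.

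Of the fibril-associated collagens some fell and some rose. Col12a1 had 6.54, 6.64, 6.84 and 7.15 in digested vessels, against 7.67, 7.72, 7.93 and 7.92 in undigested vessels. The groups lay apart, and digested array 4 was nearest to the undigested arrays. Col12a1 averaged 6.79 ± 0.27 in digested vessels and 7.81 ± 0.14 in undigested vessels (SD, n = 4 each), 2.02-fold lower (log2 difference -1.02, SE 0.14, adjusted p = 0.00183). Col14a1, a close relative of Col12a1, had 6.55, 6.53, 6.56 and 6.74 in digested vessels, against 6.20, 6.39, 6.32 and 6.29 in undigested vessels. It rose 1.23-fold without overlap (log2 difference 0.30, SE 0.08, adjusted p = 0.0327).

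Of the 3 type IX genes, whose chains form a single heterotrimer in cartilage, Col9a3 rose, Col9a2 fell and Col9a1 did not pass. Col9a3 had 9.17, 8.77, 9.45 and 9.51 in digested vessels, against 7.92, 7.75, 8.58 and 8.44 in undigested vessels. All digested arrays were higher, and within each group arrays 1 and 2 lay below 3 and 4. The choroid plexus, astrocyte, macrophage and motile cilia markers had this order within both groups, so that it is not particular to 1 cell type. Col9a3 averaged 9.22 ± 0.34 in digested vessels and 8.17 ± 0.40 in undigested vessels (SD, n = 4 each), 2.07-fold higher (log2 difference 1.05, SE 0.22, adjusted p = 0.0107). Col9a2 had 7.10, 7.28, 7.33 and 7.37 in digested vessels, against 7.70, 7.58, 7.60 and 7.64 in undigested vessels, and it fell without overlap (log2 difference -0.36, adjusted p = 0.0177). Col9a1, near the floor, averaged 4.98 ± 0.20 in digested vessels and 5.24 ± 0.08 in undigested vessels and did not pass (adjusted p = 0.122).

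Both type VIII genes rose. Col8a1 had 9.28, 9.08, 9.30 and 9.57 in digested vessels, against 7.99, 7.97, 9.03 and 8.72 in undigested vessels. All digested arrays were higher, but undigested arrays 3 and 4 came close to them and undigested arrays 1 and 2 did not. Col8a1 averaged 9.31 ± 0.20 in digested vessels and 8.43 ± 0.53 in undigested vessels (SD, n = 4 each), 1.84-fold higher (log2 difference 0.88, SE 0.24, adjusted p = 0.0285). Col8a2 had 7.12, 7.02, 7.64 and 7.63 in digested vessels, against 6.68, 6.65, 6.90 and 6.93 in undigested vessels. It rose 1.48-fold without overlap (log2 difference 0.56, SE 0.16, adjusted p = 0.0337), and its arrays 1 and 2 were again the lower ones in both groups.

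The start regions of both type VIII genes were chosen for display after both genes were called raised (RefSeq, build GRCm38.p6; Col8a1 on the minus strand at chr16:57754688-57754987, Col8a2 on the plus strand at chr4:126286544-126286843, same window, 5′ to 3′). Capitals mark GGGCGG or CCGCCC.
Col8a1: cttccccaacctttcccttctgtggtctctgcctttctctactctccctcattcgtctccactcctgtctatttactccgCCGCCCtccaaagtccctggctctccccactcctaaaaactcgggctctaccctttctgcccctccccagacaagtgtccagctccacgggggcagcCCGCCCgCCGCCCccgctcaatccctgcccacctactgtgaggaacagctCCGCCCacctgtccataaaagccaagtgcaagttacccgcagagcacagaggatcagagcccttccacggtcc
Col8a2: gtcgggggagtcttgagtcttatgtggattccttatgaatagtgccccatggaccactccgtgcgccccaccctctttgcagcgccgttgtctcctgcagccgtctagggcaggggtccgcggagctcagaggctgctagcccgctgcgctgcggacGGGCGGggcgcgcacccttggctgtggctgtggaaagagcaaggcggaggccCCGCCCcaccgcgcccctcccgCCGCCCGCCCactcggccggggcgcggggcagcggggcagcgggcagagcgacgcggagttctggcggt
Each window held 4 matches, 2 of them overlapping in Col8a2, while 5.49% of all windows held at least 4. GC content was 60.3% in the Col8a1 window and 71.7% in the Col8a2 window, both above the median of 52.7% over all windows. These matches describe the letters alone.

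All 4 raised calls were lost in limma when undigested arrays 1 and 2 were left out together (Col9a3 0.71, adjusted p = 0.0814; Col8a1 0.43, adjusted p = 0.135; Col8a2 0.44, adjusted p = 0.221; Col14a1 0.29, adjusted p = 0.126), although 5 collagen genes were higher there at an unadjusted p of 0.05. With that fit 5 of the 10 lowered calls remained. The raised clusters of the whole array numbered 1008, against 3059 with all arrays, and the lowered clusters 1407, against 2813. Having fewer arrays, that fit has less power in both directions. Without undigested arrays 3 and 4 the calls of Col9a3 and Col8a1 remained. Among undigested arrays, the choroid plexus, fibroblast, macrophage, astrocyte and motile cilia markers were all lower in arrays 1 and 2 than in 3 and 4. Endothelial and pericyte markers had the reverse order. The part of any cell type in Col9a3, Col8a1 and Col8a2 was not tested. Single arrays also decided calls: that of Col8a1 was lost without any of digested arrays 1, 3 and 4 or undigested arrays 1 and 2 (adjusted p = 0.0583 to 0.0735), that of Col8a2 without any of digested arrays 3 and 4 or undigested arrays 1 and 2 (adjusted p = 0.0785 to 0.0871), and that of Col14a1 without any array except digested array 2 and undigested array 2 (adjusted p = 0.0531 to 0.086).

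**Figure D4:**
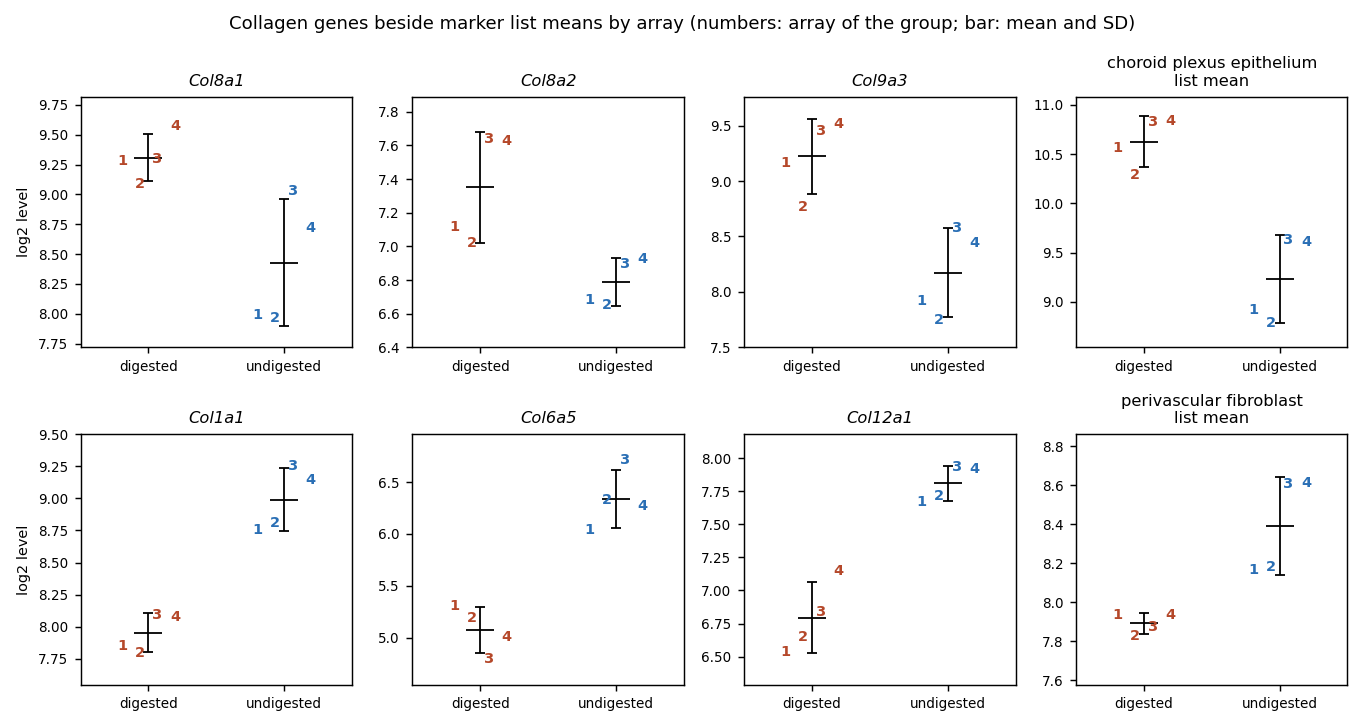
Log2 level by array (y axis, scaled per panel) of Col8a1, Col8a2 and Col9a3 beside the mean of the choroid plexus markers, and of Col1a1, Col6a5 and Col12a1 beside the mean of the perivascular fibroblast markers, with digested arrays left of undigested arrays, the array number as the point and a bar for the mean and SD. Choroid plexus markers lay between 10.29 and 10.84 in digested vessels, above the 8.79 to 9.63 of undigested vessels, and fibroblast markers lay between 7.83 and 7.93 in digested vessels, below the 8.16 to 8.61 of undigested vessels. Lists not drawn had median differences of -1.17 (astrocyte), -1.08 (macrophage), -0.76 (motile cilia), -0.61 (pericyte), -0.43 (endothelial) and 0.53 (smooth muscle). The fibroblast median was -0.44. The part of any cell type in the drawn genes was not tested.

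Further lowered genes encode membrane or less studied collagens. Col23a1, a transmembrane collagen gene, had 6.83, 6.77, 7.17 and 6.83 in digested vessels, against 7.33, 7.38, 7.67 and 7.2 in undigested vessels, and fell 1.41-fold (log2 difference -0.50, adjusted p = 0.023). It did so without overlap. Col26a1 had 6.37, 6.56, 6.77 and 6.44 in digested vessels, against 7.02, 6.74, 6.98 and 7.02 in undigested vessels, with undigested array 2 below digested array 3 (log2 difference -0.41, adjusted p = 0.0284). The calls of Col23a1 and Col26a1 depended on single arrays: the Col23a1 call was lost without digested array 1, 2 or 4 or undigested array 2 (adjusted p = 0.0525 to 0.0589), and the Col26a1 call without digested array 1, 2 or 4 or undigested array 1, 3 or 4 (adjusted p = 0.0532 to 0.0747). The remaining 11 genes of this class did not pass and lay between -0.41 and 0.22. Among them Col7a1, the anchoring fibril gene, was lower in all digested arrays (-0.24, adjusted p = 0.0858), and Col20a1 and Col28a1 differed by -0.41 each (adjusted p = 0.0577 and 0.11).

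**Figure D5:**
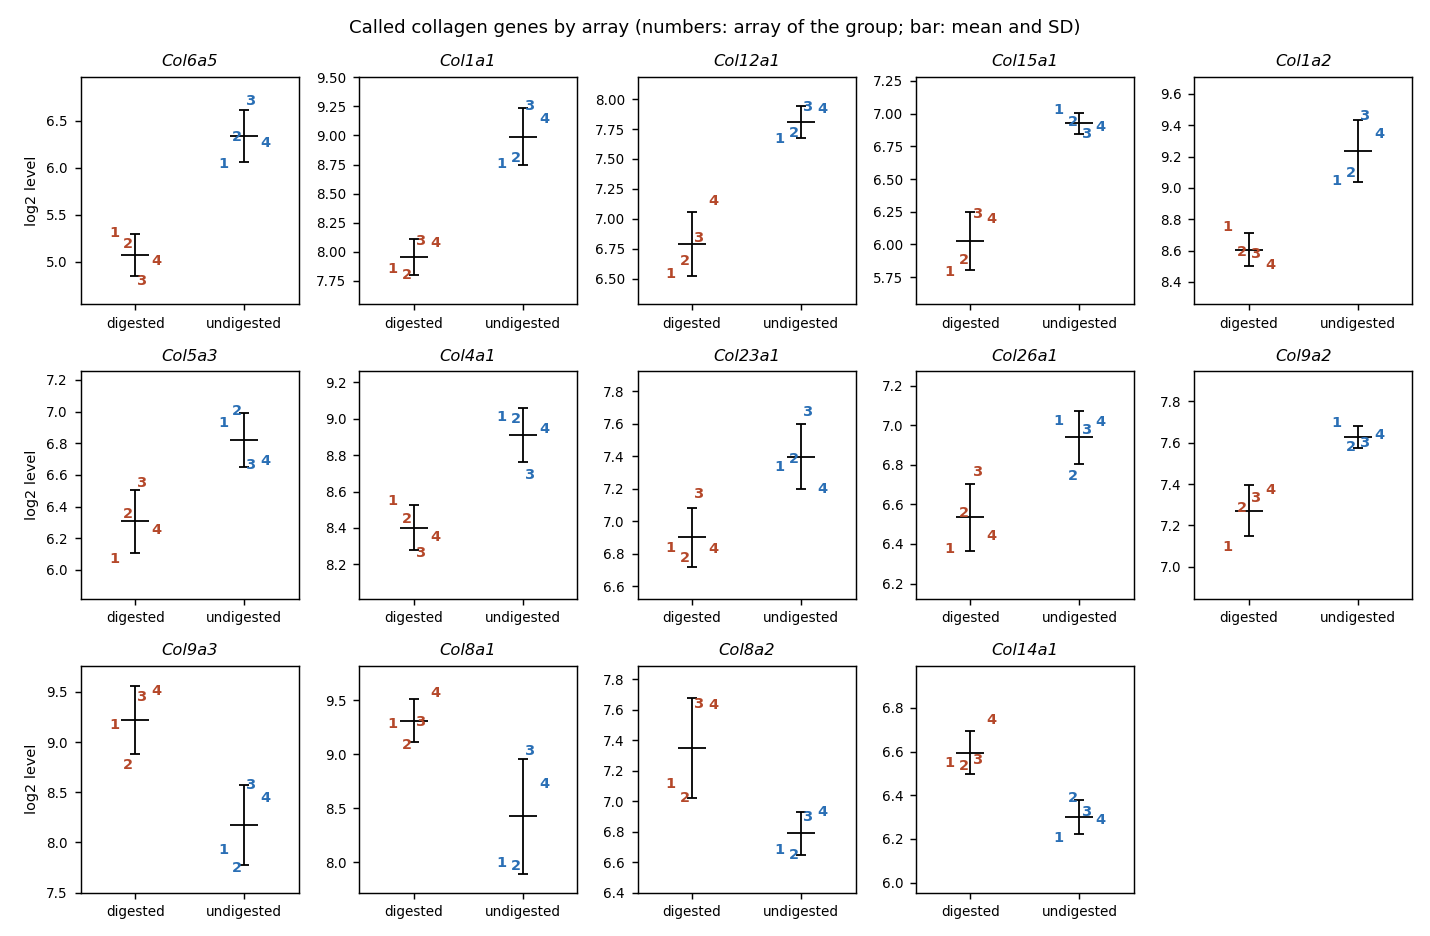
Log2 level (y axis, scaled per gene) of the 14 collagen genes past the test, with digested arrays left of undigested arrays, the array number as the point and a bar for the mean and SD. Of these genes only Col26a1 overlapped between the groups, and for Col9a3, Col8a1 and Col8a2 undigested arrays 1 and 2 were the lowest points.

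Collagen chains are hydroxylated and folded in the endoplasmic reticulum before export. Of 16 measured hydroxylase and chaperone genes, 5 were lowered (31.2%, against 9.04% of all named genes), 1 was raised (6.25%, against 14.4%) and 10 did not pass, with a median of -0.05, against 0.02 over all named genes. P4ha3, an alpha subunit of prolyl 4-hydroxylase, had 5.28, 5.50, 5.34 and 5.27 in digested vessels, against 6.28, 6.20, 6.89 and 6.59 in undigested vessels, and fell 2.21-fold without overlap (log2 difference -1.14, SE 0.15, adjusted p = 0.00166). Colgalt2, a collagen galactosyltransferase gene, fell by 0.95 on the log2 scale (SE 0.17, adjusted p = 0.0051). P3h2, a prolyl 3-hydroxylase that acts on type IV chains among others, rose (0.75, SE 0.14, adjusted p = 0.00639). The other lowered genes, named after their values were seen, were Serpinh1, the collagen chaperone Hsp47 (-0.41, adjusted p = 0.00611), Sparc, a collagen-binding protein gene (-0.39, adjusted p = 0.00637), and the lysyl hydroxylase Plod1 (-0.40, adjusted p = 0.0402). The Plod1 call was lost without any single array except digested array 1 (adjusted p = 0.0503 to 0.0949).

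Of 8 export and propeptide processing genes above the floor 2 were raised (25%, against 14.4% of all named genes) and 0 lowered (median 0.17). The lowered count was also 0 at an unadjusted p of 0.05 and by the methods' t-test after Benjamini-Hochberg adjustment. Pcolce2, an enhancer of procollagen C-proteinase, had 9.47, 9.09, 9.64 and 9.68 in digested vessels, against 7.68, 7.85, 8.53 and 8.64 in undigested vessels, and rose 2.45-fold (log2 difference 1.29, SE 0.23, adjusted p = 0.00553). Its undigested arrays 1 and 2 were also the lowest, as for Col9a3. Adamts14, a procollagen N-propeptidase gene, rose by 0.78 (SE 0.17, adjusted p = 0.0138).

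Among 6 cross-linking genes the lysyl oxidase genes Loxl1 (0.76, SE 0.12, adjusted p = 0.00356) and Lox (0.52, SE 0.12, adjusted p = 0.0151) were raised (33.3%, against 14.4% of all named genes) and 4 did not pass (median -0.03). Among 8 collagen receptor genes above the floor 2 were lowered, Mrc2, an endocytic collagen receptor (-0.68, SE 0.12, adjusted p = 0.00584), and Itga1, the alpha1 integrin chain (-0.45, SE 0.11, adjusted p = 0.0199), and 6 did not pass (median -0.26; 25% lowered, against 9.04% of all named genes). Each of these lists holds few genes. The Itga1 call was lost without undigested array 1 or 2 (adjusted p = 0.056 and 0.0549).

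Where levels were set relative to the endothelial markers, all collagen differences shifted by 0.47 upward, since those markers fell. On that scale Col1a1, Col6a5, Col12a1 and Col15a1 were still lowered (Col1a1 -0.56, adjusted p = 0.0282), Col4a1 differed by -0.04 (adjusted p = 0.828) and Col1a2 by -0.15 (adjusted p = 0.457), and Col18a1 was raised (0.97, adjusted p = 0.000813). The median over all named genes moved to 0.50 on that scale. Class medians relative to it were -0.21 for basement membrane, -0.10 for fibrillar, -0.28 for type VI and -0.17 for other collagens. They equal those on the deposited scale by construction, since 0.47 is added to every difference alike.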

How the data were processed

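Total RNA of 4 digested and 4 undigested vessel pools was hybridized to 1 array each. The authors deposited 1 log2 value per transcript cluster and array. Their methods name Expression Console, EASANA, antigenomic background correction and quantile normalization; whether the deposited log2 values had these steps is not given in the sources used here. That the values are log2 follows from their range, and array medians lay between 5.58 and 5.71. Arrays correlated at 0.976 to 0.982 among digested and 0.972 to 0.986 among undigested vessels. No value was transformed for the main comparison. The precision is limited by 4 arrays per group, and p-values measure the spread between vessel pools.

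Of 41345 transcript clusters, 23521 had a single platform symbol, 1820 several and 16004 none; 23328 Entrez identifiers matched the RefSeq table (GRCm38.p6), and 0 symbols changed. As background floor served the 90th percentile of the average levels of 1407 clusters for vomeronasal or olfactory receptors. Above it lay 27665 clusters, which were fitted with limma (version 3.58.1, under R 4.3.3), by lmFit followed by a two-sided eBayes test with Benjamini-Hochberg adjustment over all these clusters and a threshold of 0.05. Lists are described by counts and medians without a test. Collagen genes, classes and lists were chosen with earlier results of these data known. Values by array are given for collagen genes past the test and for types I, III, IV, VI, XV and XVIII; for each pathway list up to 3 members past the test with the largest difference are named. Promoter windows came from RefSeq, and 35 of 44 genes had one. The code of the fit was tested on simulated data with independent noise per array, which hold no shared split of the undigested arrays. Figures were drawn with matplotlib 3.10.9.

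Alternatives were centring on the array median or on the endothelial markers, a second quantile normalization, no or a stricter filter, arrayWeights, a trended robust eBayes, the methods' t-test, a block on the replicate number, averaging a gene's clusters, and arrays left out. The methods' t-test was used here with Benjamini-Hochberg adjustment and no fold limit. The study itself applied it with an uncorrected p of 0.05 and a 2-fold change, so that the counts differ in criterion. Fits on arrays numbered 1 and 2, or 3 and 4, were added after seeing the data.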

Additional observations from a re-analysis of the deposited data

Results flagged for a closer look

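In 4 of the 86 groups of 4 arrays examined among the collagen genes, a single array lay far from the other arrays of its group by Dixon's criterion, and chance alone gives about 1 in 20 groups. Col14a1 had 6.74 in digested array 4, against 6.53 to 6.56 in the other digested arrays. Col23a1 had 7.17 in digested array 3, against 6.77 to 6.83 in the other digested arrays. Col26a1 had 6.74 in undigested array 2, against 6.98 to 7.02 in the other undigested arrays, and this array made its groups overlap. Col13a1, a transmembrane collagen gene that did not pass the test, had 7.04 in undigested array 3, against 6.81 to 6.82 in the other undigested arrays.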

How the results depend on the processing

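Of the 14 calls, those of Col1a1, Col6a5 and Col12a1 held in all 22 alternatives, and Col15a1 was lost only on arrays numbered 3 and 4 (-0.66, adjusted p = 0.0536). The number lowered, 10 with all arrays, was 4 with endothelial centring, 5 without undigested arrays 1 and 2, 4 on arrays numbered 3 and 4, and 8 to 12 with single arrays left out. The number raised, 4 with all arrays, was 16 with endothelial centring and 2 with the methods' t-test after Benjamini-Hochberg adjustment. It was 0 in limma without undigested arrays 1 and 2 (5 at an unadjusted p of 0.05) and 2 without undigested arrays 3 and 4. On arrays numbered 3 and 4 it was 2, and with single arrays left out 1 to 5. Of all 27665 clusters, endothelial centring gave 15578 raised and 401 lowered, against 3059 and 2813 on the deposited scale. The basement membrane median of -0.19 was -0.14 with array weights, 0.29 with endothelial centring, -0.27 without undigested arrays 1 and 2, -0.064 without undigested arrays 3 and 4, -0.075 on arrays numbered 1 and 2, -0.34 on arrays numbered 3 and 4, and -0.24 to -0.13 with single arrays left out. Endothelial centring gave medians of 0.40 for fibrillar, 0.22 for type VI and 0.32 for other collagens; arrays numbered 3 and 4 gave -0.22, -0.40 and -0.045 for these classes, and arrays numbered 1 and 2 gave -0.11 for type VI. Endothelial centring turned the sign of 9 genes that passed in either fit, Col5a1 (0.41), Col9a2 (0.12), Col11a2 (0.46), Col26a1 (0.067), Col27a1 (0.46), Plod1 (0.071), Serpinh1 (0.064), Sparc (0.086) and Itga1 (0.022), and of 17 genes that passed in neither, such as Col4a2 (0.13) and Col3a1 (0.40), since it adds 0.47 to every difference; the lowered share of all calls was 47.9% as deposited, 41% with median centring and 2.51% with endothelial centring. Same-numbered arrays showed little pairing (correlation of deviations 0.06, 0.18, -0.04 and 0.18). Digested array 2 correlated at 0.15 and 0.18 with undigested arrays 1 and 2, against -0.19 and -0.12 with 3 and 4. Digested array 4 had -0.20 and -0.21, against 0.20 and 0.18. Digested arrays 1 and 3 had -0.11 to 0.06. A factor for arrays 1 and 2 against 3 and 4 across both groups was not fitted. With the replicate block 10 were lowered and 3 raised. Col26a1 (adjusted p = 0.0515) and Col14a1 (0.0629) were lost there and Col4a2 (0.0324) was gained. Fits with fewer arrays have less power, and apart from this and the centring shift the cause of these changes was not tested. Levels near the floor, such as those of Col6a5 in digested vessels, may understate a fall.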
